A study of Mus musculus with 16 samples.

Results

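Chemokines and their receptors were followed in the mouse acute myeloid leukaemia cell line AML246 while the myeloid transcription factor PU.1 was raised and lowered again. The 10 genes chosen were the ligands Ccl3, Ccl4, Ccl6 and Ccl9 and the receptors Ccr1, Ccr2, Ccr3, Cxcr2, Cxcr4 and Cx3cr1, each taken where the count files list it. The files hold 9 of them among 13652 genes, and Ccl4 was not analysed here. All cells grew in serum-containing medium with interleukin-3. Untreated cells (day 0) were compared with cells given doxycycline at 0.1 µg/mL for 4, 8 or 12 days, with Cd11b-high cells sorted on day 12, and with cells 4, 8 or 12 days after doxycycline was removed on day 12. Except for the Cd11b-high sort, every library came from total viable cells collected by FACS. The series title names restoration and then knockdown of PU.1; the sources used here do not describe the construct that answers to doxycycline or the number of clones behind the line. Each of the 8 groups had 2 RNA-seq libraries, A and B, and because nothing says that they came from separate cultures, the p-values rest on a spread between libraries that could be technical.

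Spi1, which encodes PU.1, checked the labels: it ran from 56.8 to 66.3 CPM (reads scaled to the normalised size of each library) at day 0, from 186 to 248 in the 8 libraries on doxycycline and from 37.2 to 65.0 after removal. Itgam, which encodes Cd11b, was at 1.41 and 1.77 CPM at day 0 and at 669.5 and 719 at day 12. Total counts ran from 12962801 to 26509803 per library. Mitochondrial reads were 6.35% and 7.36% of the day 0 libraries against 2.01% to 3.59% of the other 14, and their part in the results was not tested. Myeloid markers were present throughout: the 7 monocyte and macrophage markers in the files summed to between 990.2 and 1985 CPM, of which Ly6c2 made up 1283 at day 0 and 1378 at day 12. Of these 7, 4 rose and 0 fell from day 0 to day 12 (median log2 fold 2.59), beside 30.0% and 33.4% of all genes. The part of these markers in the results was not tested. The A and B libraries of 12 days off differed most, with a chi-square per degree of freedom of 71.3 against 2.90 to 18.5 in the other groups. In these bulk libraries, fewer cells of a type and less RNA per cell cannot be told apart.

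Chemokines are small secreted proteins that bind G protein-coupled receptors and steer leukocytes along their gradients. Ccl3, Ccl6 and Ccl9 are ligands of Ccr1, a receptor of monocytes and granulocytes. Ccr2 draws monocytes out of the marrow, Ccr3 is the eotaxin receptor of eosinophils, and Cxcr2 is the main chemokine receptor of neutrophils. Cxcr4 holds haematopoietic cells in the marrow by binding Cxcl12, and Cx3cr1 binds the membrane-anchored chemokine Cx3cl1. PU.1 belongs to the ETS family of DNA-binding proteins and recognises purine-rich sites built around GGAA.

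The genes sit partly in clusters. In RefSeq (GRCm38.p6), Ccr1 (Entrez 12768, chr9:123962126-123968692), Ccr3 (12771, chr9:124017825-124031692) and Ccr2 (12772, chr9:124101918-124109140) lie close together on chromosome 9, and Cx3cr1 (13051, chr9:120048683-120068296) lies apart from them on the same chromosome. Ccl9 (20308, chr11:83572917-83578636), Ccl6 (20305, chr11:83587886-83593087), Ccl3 (20302, chr11:83647843-83649378) and Ccl4 lie within 91.8 kb of chromosome 11. Cxcr2 (12765, chr1:74153994-74161246) and Cxcr4 (12767, chr1:128588199-128592299) are on chromosome 1. The RefSeq span of Ccl3 overlaps that of Ccl4, Ccl6 overlaps the long noncoding RNA E230016K23Rik, and Cx3cr1 overlaps Gm33858. The sources used here do not give the strand setting of the counting, so reads of such partners cannot be told apart.

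The promoters of the 4 members with the largest rises to day 12 (Ccl6, Ccl9, Ccr1 and Ccr3) and of Cx3cr1, the member that fell, are printed so that their sequences can be read beside their opposite changes. Each runs from 250 bases before to 50 bases after a RefSeq transcript start on the gene's strand (Ccl6 chr11:83593038-83593337, Ccl9 chr11:83578587-83578886, Ccr1 chr9:123968643-123968942 and Cx3cr1 chr9:120068247-120068546 on the minus strand, Ccr3 chr9:124021721-124022020 on the plus strand). For Ccr3 that start lies 4146 bases inside the gene's span, and for Ccr2, whose window is counted below, 265 bases inside; for the other 7 it is the end of the span. Capitals mark the ETS strings GAGGAA (the PU box) and AGGAAG on either strand, so that TTCCTC and CTTCCT are the same strings read from the other strand.
Ccl6: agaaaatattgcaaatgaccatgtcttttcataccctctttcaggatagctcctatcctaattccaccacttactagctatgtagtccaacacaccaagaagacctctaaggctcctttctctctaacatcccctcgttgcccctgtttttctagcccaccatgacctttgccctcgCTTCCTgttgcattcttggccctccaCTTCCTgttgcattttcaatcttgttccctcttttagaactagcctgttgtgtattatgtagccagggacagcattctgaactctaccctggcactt
Ccl9: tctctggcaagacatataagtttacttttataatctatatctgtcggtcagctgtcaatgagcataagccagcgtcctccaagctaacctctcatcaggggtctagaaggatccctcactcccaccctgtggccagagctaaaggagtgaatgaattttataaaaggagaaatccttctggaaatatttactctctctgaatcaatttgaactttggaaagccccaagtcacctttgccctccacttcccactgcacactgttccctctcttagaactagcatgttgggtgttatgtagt
Ccr1: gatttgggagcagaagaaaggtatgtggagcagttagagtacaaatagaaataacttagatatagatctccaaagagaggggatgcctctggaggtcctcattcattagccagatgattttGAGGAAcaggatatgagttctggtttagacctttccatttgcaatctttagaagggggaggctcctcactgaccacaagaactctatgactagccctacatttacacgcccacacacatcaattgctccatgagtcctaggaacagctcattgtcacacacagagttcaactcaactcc
Ccr3: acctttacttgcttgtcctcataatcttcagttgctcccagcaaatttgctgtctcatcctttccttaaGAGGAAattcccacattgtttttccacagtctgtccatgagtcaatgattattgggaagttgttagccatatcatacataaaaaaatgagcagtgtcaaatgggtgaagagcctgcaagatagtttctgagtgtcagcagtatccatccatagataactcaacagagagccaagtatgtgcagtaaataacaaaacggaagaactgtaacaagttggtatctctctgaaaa
Cx3cr1: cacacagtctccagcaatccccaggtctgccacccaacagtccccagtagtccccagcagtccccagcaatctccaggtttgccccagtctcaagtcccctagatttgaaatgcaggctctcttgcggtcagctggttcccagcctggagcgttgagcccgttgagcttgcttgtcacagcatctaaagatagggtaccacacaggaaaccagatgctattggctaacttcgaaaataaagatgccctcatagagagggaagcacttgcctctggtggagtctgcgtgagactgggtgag

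Ccr1 holds GAGGAA at bases 122 to 127 of its window and Ccr3 at bases 70 to 75, while Ccl6 holds AGGAAG on the other strand at bases 178 to 183 and 204 to 209. No match to either string lies in these windows of Ccl9 and Cx3cr1, which says only that the letters are absent there. Over all 9 members, GAGGAA was in 4 windows (Ccl3, Ccr1, Ccr3 and Cxcr2), where 28.3% of 32851 mouse promoters of the same length hold it. AGGAAG, a string added after the sequences had been seen, was in 2 windows (Ccl6 and Cxcr2) and in 35.4% of all promoters. Either string was in 5 member windows and in 46.0% of all; the strings overlap where the sequence reads GAGGAAG. The GATA string AGATAA was in the Ccr2 and Ccr3 windows and in 11.2% of all, and TATAAA was in the Ccl9 and Cxcr4 windows and in 13.6%. Among the 36 pairs of member windows, the neighbours Ccl6 and Ccl9 had the longest identical run, the 13 bases gccctccacttcc.

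Compared per kilobase of the deposited gene length, Cxcr4 was the highest member in all 8 groups, at 137 ± 25.3 CPM per kb (mean ± SD, n = 2 here and below) at day 0 and 117 ± 1.72 at day 12. Ccr2 ranked next at day 0 with 5.12 ± 0.294 CPM per kb and at day 12 with 9.70 ± 0.222, where Ccr1 followed at 8.86 ± 0.026. Cx3cr1 ranked 3 of 9 at day 0, at 1.60 ± 0.583 CPM per kb, and 9 of 9 at day 12, at 0.544 ± 0.164. Ccr3 moved the other way, from rank 8 at day 0 to rank 5 at day 12, at 3.87 ± 0.498 CPM per kb. The ligands were low: Ccl6 reached 6.18 ± 0.522 CPM per kb at day 4, and Ccl9 and Ccl3 did not pass 2.29 and 2.04 in any group.

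**Figure D1:**
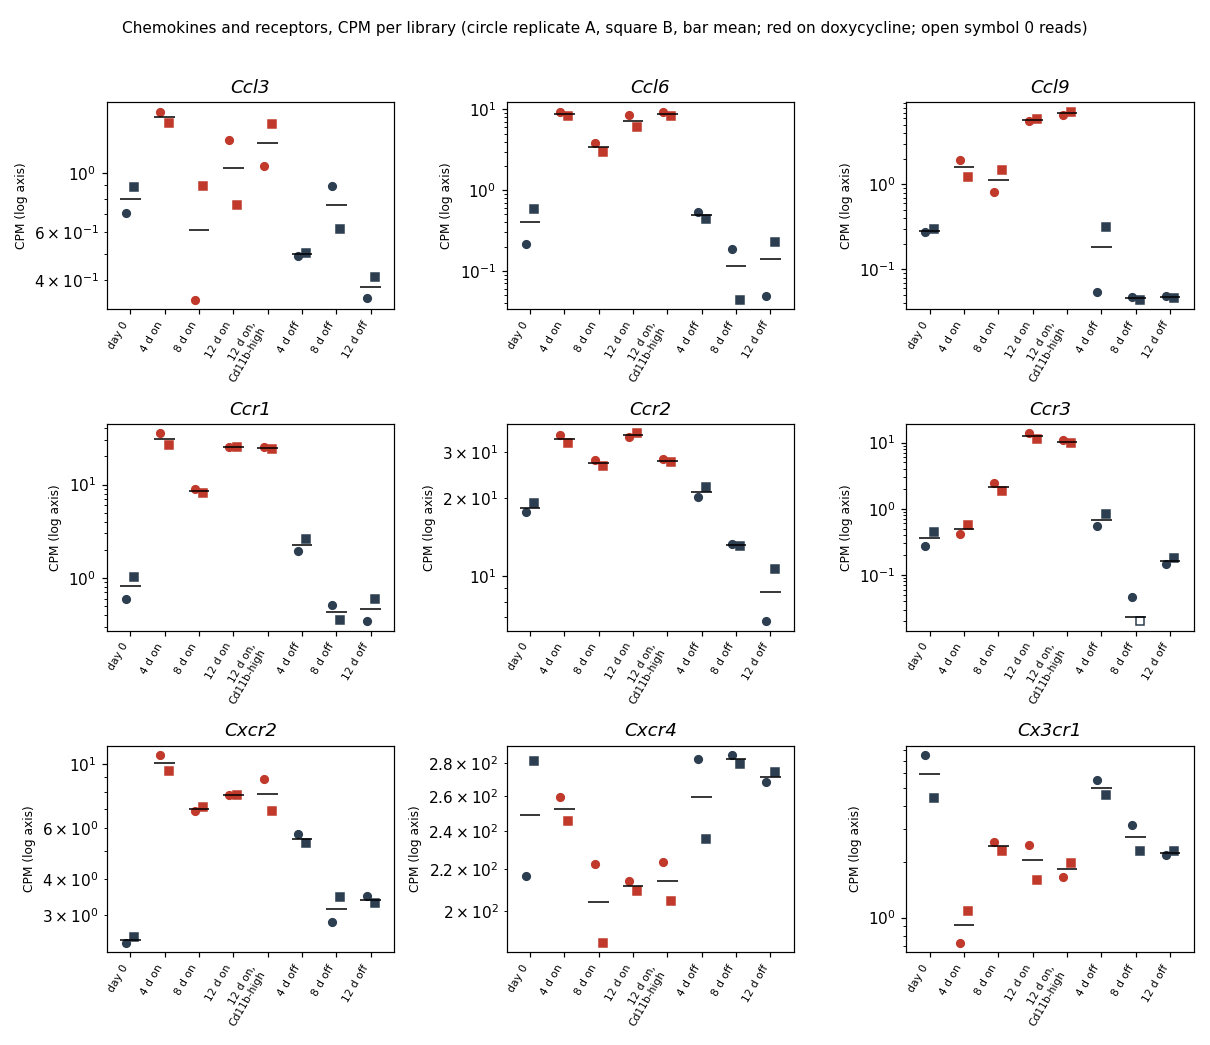
Normalised CPM (log axis, its range set for each gene) of the 9 genes in all 16 libraries, by group; circles are library A, squares library B, short bars the means, red marks cells on doxycycline, and the open symbol 0 reads. Ccr1, Ccl6 and Ccl9 stand above day 0 throughout doxycycline and Ccr3 from day 8, all 4 are below day 0 or overlap it 8 and 12 days after removal, and Cxcr4 stays between 186 and 285 CPM.

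The first comparison asks how these genes stood after 12 days of doxycycline, and most of the receptors and ligands of mature myeloid cells were higher. Ccr3 and Ccr1 rose most, Ccl9 and Ccl6 rose close behind them, and Cxcr2 and Ccr2 rose less. Cx3cr1 fell. Cxcr4 and Ccl3 did not pass the test. Genes were called at an adjusted p under 0.05 in edgeR's quasi-likelihood test over all 13652 genes. By that test 6 of the 9 members rose and 1 fell at day 12 against day 0, where 63.4% of all genes were called, 30.0% higher and 33.4% lower. The median log2 fold was 1.67 over the members and -0.07 over all genes.

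Among the ligands, Ccl6 stood at 0.217 and 0.590 CPM in the day 0 libraries (12 reads in all), at 9.41 and 8.35 at day 4, at 3.85 and 3.0 at day 8 and at 8.43 and 6.03 at day 12. Every library on doxycycline was above every day 0 library, and day 8 was the lowest of the doxycycline groups. At day 12 Ccl6 was 18.8-fold above day 0 (edgeR log2 fold 4.23, SE 0.39, adjusted p = 3.1e-07). The size rests on the few day 0 reads: it was 12.1-fold without day 0 library A and 32.3-fold without library B. Ccl9, a ligand made by macrophages and other myeloid cells, was at 0.272 and 0.295 CPM at day 0, at 1.96 and 1.21 at day 4, at 0.811 and 1.47 at day 8 and at 5.56 and 5.87 at day 12. Its day 12 libraries were above all earlier ones, and its log2 fold over day 0 was 4.31 (SE 0.40, edgeR adjusted p = 3.4e-07). Ccl9 was under 0.5 CPM in every library of day 0 and after removal. Its higher level on doxycycline was thus a condition of being in the files.

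Ccl3, the inflammatory chemokine MIP-1 alpha, was the exception among the ligands. It was at 0.707 and 0.885 CPM at day 0, 1.69 and 1.53 at day 4, 0.338 and 0.893 at day 8, and 1.32 and 0.759 at day 12, which is 19 to 82 reads per group. The day 0 and day 12 libraries overlapped (edgeR log2 fold 0.39, SE 0.41, adjusted p = 0.43), with a 95% interval of -0.56 to 1.34.

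Among the receptors, Ccr1 was at 0.598 and 1.03 CPM at day 0, at 35.4 and 26.6 at day 4, at 8.92 and 8.10 at day 8, and at 25.1 and 25.0 at day 12. The highest and the lowest groups were far apart, and no day 0 library came near a doxycycline library. At day 12 Ccr1 was 31.6-fold above day 0 (edgeR log2 fold 4.98, SE 0.26, adjusted p = 1.1e-09). Ccr3 had another course: 0.272 and 0.443 CPM at day 0, 0.422 and 0.565 at day 4, 2.43 and 1.85 at day 8, and 13.8 and 11.5 at day 12. Its day 4 libraries overlapped those of day 0, and each later group stood clear above the group before it. The day 12 log2 fold over day 0 was 5.17 (SE 0.31, edgeR adjusted p = 4.8e-09).

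Cxcr2 was at 2.39 and 2.51 CPM at day 0 and at 10.8 and 9.44, 6.89 and 7.08, and 7.84 and 7.79 at days 4, 8 and 12. All doxycycline libraries were above day 0, with a day 12 log2 fold of 1.67 (SE 0.19, edgeR adjusted p = 2.5e-06). Ccr2 was already at 17.6 and 19.1 CPM in untreated cells and reached 34.9 and 32.4, 27.9 and 26.4, and 34.2 and 35.4 at the same times. It was 1.90-fold higher at day 12 (edgeR log2 fold 0.92, SE 0.15, adjusted p = 9.9e-05), the smallest of the 6 rises.

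Cx3cr1, a receptor of resident and patrolling monocytes, fell. It was at 7.50 and 4.43 CPM at day 0, at 0.730 and 1.09 at day 4, at 2.57 and 2.30 at day 8 and at 2.46 and 1.60 at day 12. The lowest group was day 4, and no doxycycline library reached day 0; the log2 fold at day 12 was -1.58 (SE 0.28, edgeR adjusted p = 2e-04). Cxcr4 was at 217 and 281 CPM at day 0 and at 259 and 246, 223 and 186, and 214 and 209 at days 4, 8 and 12. Its day 12 difference from day 0 did not pass the test (edgeR log2 fold -0.23, SE 0.13, adjusted p = 0.13), with an interval of -0.54 to 0.07. It was called lower without day 0 library A (log2 fold -0.41, edgeR adjusted p = 0.022) and when library size alone was used for scaling (-0.37, edgeR adjusted p = 0.030), so that both of those fits gave 6 members higher and 2 lower.

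**Figure D2:**
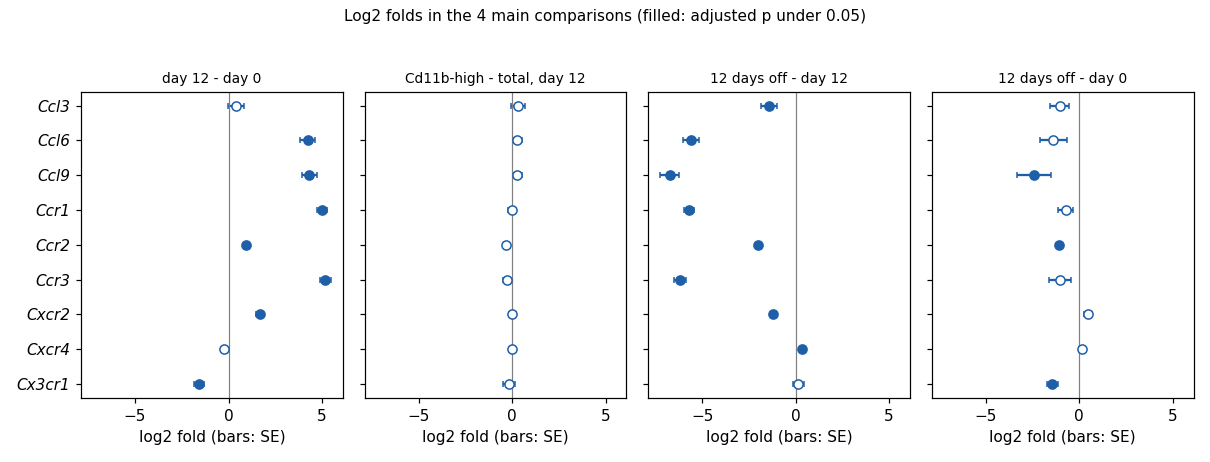
Log2 folds of the 9 genes in the 4 main comparisons, with SE bars from the edgeR fit; filled points passed an adjusted p of 0.05. At day 12 the points run from -1.58 (Cx3cr1) to 5.17 (Ccr3), the Cd11b-high panel holds no filled point, and 7 points are filled on the lower side 12 days after removal against day 12.

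The rise to day 12 was not even over time. From day 0 to day 4, 6 members rose and 1 fell (59.2% of all genes called, 28.2% higher and 31.0% lower). Ccr1 led with a log2 fold of 5.29 (SE 0.25, edgeR adjusted p = 5.4e-10), followed by Ccl6 at 4.53, Ccl9 at 2.47 and Cxcr2 at 2.04, while Cx3cr1 fell by 2.73 on the log2 scale (edgeR adjusted p = 3e-06). Ccr3 stood at a log2 fold of 0.50 (SE 0.46, edgeR adjusted p = 0.39). The rise of Ccl3 at day 4 (log2 fold 1.03, edgeR adjusted p = 0.031) did not hold without day 0 library A or B or day 4 library A or B (adjusted p of 0.18, 0.061, 0.083 and 0.054) or with DESeq2 (0.082).

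Between days 4 and 8 Ccr1, Ccl6, Ccl3 and Cxcr2 came down, and Ccr3 and Cx3cr1 went up. Of the 9 members, 2 rose and 4 fell in this step, where 13.9% of all genes were called, 6.78% higher and 7.16% lower (749 higher and 1201 lower with library size alone). Ccr1 fell by 1.87 on the log2 scale (SE 0.18, edgeR adjusted p = 1.9e-05), Ccl6 by 1.38 (0.0034), Ccl3 by 1.37 (0.036) and Cxcr2 by 0.53 (0.044), while Ccr3 rose by 2.10 (SE 0.32, edgeR adjusted p = 6e-04) and Cx3cr1 by 1.42 (0.014). The calls for Ccr1 and Ccr3 remained whichever of the 4 libraries was left out. The member count was 3 without day 4 library A, day 8 library A or day 8 library B, and 4 without day 4 library B. The calls lost in this way were those of Ccl3 (adjusted p of 0.15, 0.084 and 0.28 without day 4 library A, day 4 library B and day 8 library A), Ccl6 (0.071 without day 8 library B), Cxcr2 (0.076 to 0.26 over the 4 libraries) and Cx3cr1 (0.13, 0.082 and 0.071 without day 4 library A, day 8 library A and day 8 library B). Without day 8 library B the Ccl3 log2 fold was -2.23. DESeq2 did not call Ccl3 (0.086) or Cxcr2 (0.078). Ccl9 (edgeR log2 fold -0.47, adjusted p = 0.42) and Ccr2 (-0.31, adjusted p = 0.20) did not pass in this step.

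Between days 8 and 12 the direction turned for Ccr1. This step called 3 members, all higher, where 2.24% of all genes were called, 1.82% higher and 0.425% lower (168 higher and 86 lower with library size alone). Against day 0, 6 members were higher and 1 lower at day 8 (57.3% of all genes called, 27.0% higher and 30.2% lower). Of these calls, Ccl9 was lost without day 8 library B (edgeR adjusted p = 0.065) and Ccr2 without day 0 library A (0.053), and Cxcr4 was called lower without day 0 library A (0.015) or day 8 library A (0.044). Ccr3 rose by a further 2.56 on the log2 scale (SE 0.23, edgeR adjusted p = 1.6e-05), Ccl9 rose by 2.31 (SE 0.31, edgeR adjusted p = 0.00075) and Ccr1 by 1.56 (SE 0.18, edgeR adjusted p = 0.00022). These 3 calls held without each of the 4 libraries. Ccl6 was 2.11-fold higher at day 12 than at day 8 and missed the threshold (edgeR adjusted p = 0.053; 0.047 with RLE size factors, 0.017 with DESeq2). Fitted on the 4 libraries alone, the step called 5 members, Ccl6 (edgeR adjusted p = 0.00097) and Ccr2 (0.005) being added, and 3402 of all genes against 306; without day 8 library A or B or day 12 library A or B it called 77, 113, 101 and 100 genes.

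**Figure D3:**
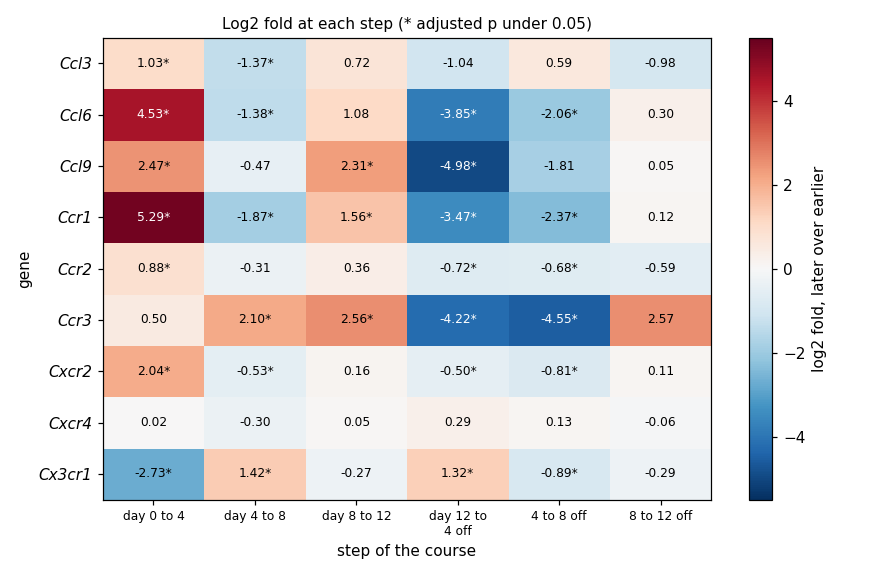
Log2 fold of each gene (rows) at each of the 6 steps of the course (columns), later over earlier group, with colour on the same scale; a star marks an edgeR adjusted p under 0.05. Ccr1, Ccl6, Cxcr2 and Ccl3 go up to day 4 and down to day 8. Ccr1 rises again to day 12 (1.56), and Ccr3 rises in the 2 later doxycycline steps. Fitted values for Ccr3 and Ccl9 at 8 and 12 days off rest on 1 to 7 reads per group.

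Granulocyte markers also differed in their courses. Of all genes, 28.2% rose and 31.0% fell from day 0 to day 4. From day 4 to day 8, 6.78% rose and 7.16% fell, and 1.82% rose from day 8 to day 12. Of 11 neutrophil markers in the files (12 listed, among them S100a8, S100a9, Lcn2 and Ngp), 11 rose from day 0 to day 4 and 6 fell from day 4 to day 8. Their summed level was 164 to 182 CPM at day 0, 2495 to 3132 at day 4, 1108 to 1246 at day 8 and 906 to 937 at day 12, with Retnlg at 0 reads at day 0. Of 9 eosinophil markers (Prg2, Epx, Ear1, Ear2, Ear6, Siglecf, Il5ra, Alox15 and Prg3), 2 rose and 6 fell to day 4, 9 rose from day 4 to day 8 and 7 rose from day 8 to day 12. They summed to 2094 to 5225 CPM at day 0, 219 to 259 at day 4, 3078 to 3442 at day 8 and 8573 to 9570 at day 12, with Ear2 at 0 reads at day 4. Ccr3 was thus at 0.494 ± 0.101 CPM where the eosinophil sum was lowest among the doxycycline groups and at 12.7 ± 1.63 where it was highest, whereas Ccr1, Cxcr2 and Ccl3 were highest at day 4 with the neutrophil sum. At day 0 the eosinophil sum was high and Ccr3 was low; Epx made up 3433 CPM of it. From day 8 to day 12 Ccr1 rose while the neutrophil sum fell. The monocyte and macrophage sum was 1291 to 1410 CPM at day 0 and 1867 to 1985 at day 4. It was 1339 to 1376 CPM at day 8 and 1772 to 1797 at day 12. The part of all these cells in the results was not tested.

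**Figure D4:**
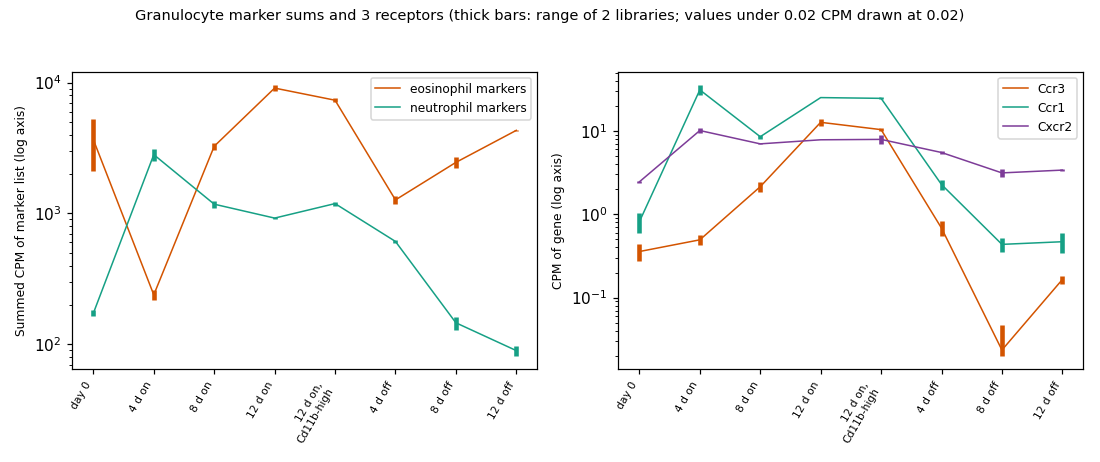
Left, summed CPM of 9 eosinophil and 11 neutrophil markers, and right, CPM of Ccr3, Ccr1 and Cxcr2, on log axes; lines join group means and thick bars span the 2 libraries of a group. The neutrophil sum, Ccr1 and Cxcr2 are highest at day 4, and the eosinophil sum and Ccr3 at day 12.

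The sort for Cd11b-high cells at day 12 left few genes called against the total viable culture, so the member count says little about these genes. edgeR's test called 0 of the 9 members, where 0.0146% of all genes were called. The unadjusted p was under 0.05 for 1 member and for 309 of all genes, and DESeq2 and limma-voom also called 0 members. Itgam itself was at 884 and 940.4 CPM in the sorted cells and at 719 and 669.5 in the total, groups that did not overlap (edgeR log2 fold 0.39, SE 0.16, adjusted p = 1). Ccr2 was at 28.1 and 27.4 CPM in sorted and 34.2 and 35.4 in total cells, also without overlap (edgeR log2 fold -0.33, SE 0.15, adjusted p = 1). The eosinophil markers summed to 7094 to 7565 CPM and the neutrophil markers to 1149.9 to 1229 in the sorted cells; their part was not tested. Fitted on the 4 libraries alone, Ccr2 was called lower (-0.34, edgeR adjusted p = 0.015). Ccr1 was at 25.2 and 23.9 CPM after the sort, with an interval of its log2 fold of -0.42 to 0.36. Ccr3 was at 10.8 and 9.94, below both libraries of total cells (interval -0.73 to 0.15). Cxcr2 was at 8.91 and 6.90 (-0.36 to 0.39) and Cxcr4 at 224 and 205 (-0.29 to 0.32). The ligands leaned higher without passing the test. Ccl3 was at 1.06 and 1.52 CPM (-0.52 to 1.15) and Ccl6 at 9.19 and 8.27 (-0.29 to 0.83). Ccl9 was at 6.56 and 7.20, above both libraries of total cells (-0.30 to 0.83). Cx3cr1 was at 1.66 and 1.98 CPM (-0.88 to 0.58).

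After doxycycline was removed the raised genes fell, and they did so by different amounts. Against day 12, 6 members were lower and 1 higher after 4 days off (36.8% of all genes called, 18.0% higher and 18.8% lower); library size alone gave 5 lower and 2 higher, with 3480 of all genes higher and 1906 lower. After 8 days off, 6 were lower and 1 higher (55.9% of all genes called, 28.7% higher and 27.2% lower; 4929 genes higher and 2916 lower with library size alone); the 1 higher was Cxcr4, a call lost without day 12 library A (edgeR adjusted p = 0.059), day 12 library B (0.075) or the 8-day library A (0.066). After 12 days off, 7 were lower and 1 higher (65.3% of all genes called, 32.9% higher and 32.4% lower). The median log2 fold was -2.0 over the members and 0.00 over all genes. Fitted on the compared libraries alone, 6 members were lower and 0 higher. The calls lost there were those of Ccl3 (edgeR adjusted p = 0.051) and Cxcr4 (0.055), the 1 higher. The day 12 libraries are shared with the comparison to day 0, so that the 2 sets of values are not independent. Granulocyte markers fell in the same comparisons: 9 of 9 eosinophil and 6 of 11 neutrophil markers after 4 days, and 8 and 11 after 12 days. Monocyte and macrophage markers fell too, 7 of 7 after 4 days and 6 of 7 after 12 (median log2 fold -3.30 at 12 days, Fcgr1 at 0 reads). So did the 3 dendritic cell markers in the files, of 7 listed, after 12 days. A marker under 0.5 CPM off doxycycline is in the files only through groups where it was higher. The eosinophil sum was 1185 to 1353, 2214 to 2696 and 4273 to 4353 CPM at 4, 8 and 12 days off, with Ear2 at 0 reads at 12 days, and the neutrophil sum was 595 to 627, 129.8 to 162 and 81.6 to 97.6, with Retnlg at 0 reads at 12 days. The part of these cells in the members' fall was not tested.

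Ccr1 was at 1.95 and 2.59 CPM 4 days after removal, at 0.517 and 0.353 after 8 days and at 0.344 and 0.593 after 12. Its libraries at 4 days off lay between day 12 and day 0, and those at 8 and 12 days off were all below day 0. The log2 fold against day 12 was -3.47 at 4 days (SE 0.21, edgeR adjusted p = 3.3e-08) and -5.71 at 12 days (SE 0.26, edgeR adjusted p = 2.6e-10). Ccr3 was at 0.543 and 0.821 CPM, then at 0.047 and 0, then at 0.147 and 0.182. The 8-day group held 1 read against 591 at day 12, a ratio of 553 (exact 95% counting interval 98.8 to 21867), and the library with 0 reads allows up to 0.132 CPM. At 12 days off the log2 fold of Ccr3 against day 12 was -6.20 (SE 0.33, edgeR adjusted p = 1e-09).

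The ligands Ccl6 and Ccl9 fell as far. Ccl6 was at 0.543 and 0.442 CPM after 4 days off, at 0.188 and 0.0441 after 8 and at 0.0491 and 0.228 after 12, 5 to 17 reads per group. These libraries were all far below day 12, and the log2 fold at 12 days was -5.61 (SE 0.43, edgeR adjusted p = 4.4e-08), or -4.94 and -7.00 without the 12-day library A and B. Ccl9 was at 0.0543 and 0.316, 0.0470 and 0.0441, and 0.0491 and 0.0456 CPM. The 12-day group held 2 reads against 269 at day 12, a ratio of 121 (exact 95% counting interval 33.2 to 1005). Ccl3 was at 0.489 and 0.505, 0.894 and 0.618, and 0.344 and 0.410 CPM. It was lower 12 days off than at day 12 (edgeR log2 fold -1.43, SE 0.45, adjusted p = 0.011), a call that was lost without day 12 library A (-0.99, edgeR adjusted p = 0.12).

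Cxcr2 and Ccr2, which had risen less, came down by smaller folds. At 4 days off Ccr2 was not called against day 0 (edgeR log2 fold 0.20, SE 0.16, adjusted p = 0.33). Ccr1 was still above day 0 then (edgeR log2 fold 1.51, adjusted p = 0.0021). Cxcr2 was at 5.70 and 5.30 CPM after 4 days off, 2.82 and 3.44 after 8 and 3.49 and 3.28 after 12, and Ccr2 was at 20.1 and 22.1, 13.3 and 13.1, and 6.73 and 10.7. At 4 days the log2 fold against day 12 was -0.50 for Cxcr2 (SE 0.17, edgeR adjusted p = 0.030; 0.096 to 0.12 without each of the 4 libraries) and -0.72 for Ccr2 (SE 0.15, edgeR adjusted p = 0.002). At 12 days it was -1.21 for Cxcr2 (SE 0.17, edgeR adjusted p = 2.6e-05) and -2.0 for Ccr2 (SE 0.16, edgeR adjusted p = 7.2e-08).

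Cx3cr1 rose at once and then sank again. It was at 5.48 and 4.55 CPM after 4 days off, at 3.15 and 2.30 after 8 and at 2.16 and 2.28 after 12. The 4-day libraries lay above those of day 12 and within the range of day 0 (log2 fold against day 12 of 1.32, SE 0.29, edgeR adjusted p = 0.0026), and the 12-day libraries overlapped day 12 (0.14, SE 0.31, edgeR adjusted p = 0.70). Cxcr4 was at 283 and 235, 285 and 279.8, and 268 and 274 CPM, above both day 12 libraries in each. Its log2 fold at 12 days off was 0.36 (SE 0.13, edgeR adjusted p = 0.026), a call lost without day 12 library A (0.083) or B (0.11).

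From 4 to 8 days off, 6 members fell further and 0 rose (24.0% of all genes called, 11.6% higher and 12.4% lower), among them Ccr1 (edgeR log2 fold -2.37, SE 0.34, adjusted p = 0.00018) and Ccr2 (-0.68, SE 0.16, edgeR adjusted p = 0.0059). The count was 3 without the 8-day library A; Ccl6 (adjusted p of 0.055 to 0.26) and Cx3cr1 (0.056 to 0.22) lost their calls without each of the 4 libraries, and Cxcr2 (0.071) without the 8-day library A. From 8 to 12 days off edgeR called 0 members, where 3.71% of all genes were called, 1.54% higher and 2.18% lower (151 higher and 335 lower with library size alone). Of the members, 2 had an unadjusted p under 0.05, limma-voom called 0 and DESeq2 called 1, Ccr2 (adjusted p = 0.019). Without the 12-day library B, Ccr2 was also called in this step, and 6159 of all genes were called against 507 with both libraries.

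The last comparison asks whether the genes returned to the untreated level, and some went below it. After 4 days without doxycycline, Ccr1 (edgeR log2 fold 1.51, SE 0.32, adjusted p = 0.0021) and Cxcr2 (1.17, SE 0.20, edgeR adjusted p = 0.00037) were still above day 0, the 2 of 9 members called (37.9% of all genes). After 8 days, 4 members were called lower (33.1% of all genes called, 16.9% lower), and leaving out 1 library left 0 to 2: 1 without day 0 library A, 2 without day 0 library B or the 8-day library A, and 0 without the 8-day library B. After 12 days, 3 of the 9 were lower than day 0 and 0 higher, where 43.6% of all genes were called, 21.6% higher and 22.0% lower. Spi1 itself was lower 12 days off than at day 0, at 46.0 ± 12.5 against 61.5 ± 6.69 CPM. Its edgeR log2 fold was -0.42 (SE 0.15, adjusted p = 0.035), and its part in these values was not tested. The day 0 libraries are shared with the comparisons above.

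Ccr2 was 0.476 of its day 0 level 12 days after removal, at 8.70 ± 2.79 against 18.4 ± 1.06 CPM (edgeR log2 fold -1.07, SE 0.16, adjusted p = 0.00012). Cx3cr1 was at 2.22 ± 0.085 against 5.96 ± 2.17 CPM (edgeR log2 fold -1.44, SE 0.28, adjusted p = 9e-04). Both calls held without each of the 4 libraries. Ccl9 held 2 reads against 9 at day 0, a ratio of 5.96 with an exact 95% counting interval of 1.23 to 56.7; its call (edgeR adjusted p = 0.043) was lost without day 0 library A or B or the 12-day library A or B (adjusted p of 0.12, 0.11, 0.10 and 0.12) and with DESeq2 (0.070). Cxcr2 stood above both day 0 libraries and missed the threshold (edgeR log2 fold 0.47, SE 0.20, adjusted p = 0.076; interval -0.0022 to 0.94). Ccr1 (-0.73, interval -1.69 to 0.23), Ccr3 (-1.04, interval -2.39 to 0.32), Ccl6 (-1.38, interval -3.08 to 0.32) and Ccl3 (-1.04, interval -2.19 to 0.10) had values below day 0 that did not pass. Cxcr4 overlapped day 0 (0.12, interval -0.18 to 0.43).

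In the order of the 8 groups, Ccr1 ran from day 4 down through day 12, Cd11b-high, day 8, 4 days off, day 0, 12 days off and 8 days off; the neighbours day 12 and Cd11b-high, and 12 and 8 days off, overlapped. Ccr3 ran from day 12 through Cd11b-high, day 8, 4 days off, day 4, day 0, 12 days off and 8 days off, with overlap between 4 days off and day 4 and between day 4 and day 0. Ccr2 ran from day 12 through day 4, Cd11b-high, day 8, 4 days off, day 0, 8 days off and 12 days off, and only day 12 with day 4, and Cd11b-high with day 8, overlapped among neighbours. For Cxcr4 every neighbouring pair overlapped, apart from 8 days off, which stood above 12 days off. Its libraries at 8 and 12 days off (268 to 285 CPM) were above all those on doxycycline (186 to 259). The libraries of day 0 (217 and 281) and of 4 days off (283 and 235) fell in both ranges.

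Across the 8 group means of log2 CPM, which share libraries and scaling, Ccr1 and Ccl6 had a Pearson r of 0.99, Ccr3 and Ccl9 one of 0.92 and Ccr3 and Cxcr2 one of 0.68. Among 9863 named genes averaging 5 CPM or more, predicted gene models left out, those most like Ccr1 in this measure were S100a11 (r 0.996), Arfip1 and Irak2, and Ccl6 was most like Kif3b (0.997), S100a11 and Washc2. Cxcr2 was most like Gsn (0.995), Card19 and Prmt2. Ccl9 was most like Adam8 (0.987), Map3k11 and Epc2, Ccr3 like Slu7 (0.988), Ahcyl2 and Zbtb22, and Ccr2 like Scyl3 (0.993), Tti1 and Nat8f4. Cx3cr1 was most like Atpaf2 (0.983), Traip and Hrob, Cxcr4 like Slc15a4 (0.985), Ybey and Pkp2, and Ccl3 like Atp10a (0.950), Vps18 and Pikfyve. Pearson r takes no account of the size of a change. S100a11 went from 51.8 CPM at day 0 to 104 at day 12, Kif3b from 31.3 to 56.3, Adam8 from 36.8 to 158 and Slu7 from 68.5 to 98.4. These values come from mean log2 CPM. Ccr1, Ccl6, Ccl9 and Ccr3, which they resemble, rose 31.6-fold, 18.8-fold, 19.9-fold and 36.0-fold. The correlations are descriptions over 8 points without a test.

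The other chemokine genes in the files did not move as a block. Of 22 further receptors listed, 5 are in the files. At day 12 against day 0, 1 rose and 1 fell, beside 30.0% and 33.4% of all genes. Ccrl2, an atypical receptor that presents chemerin and does not signal through G proteins, fell from 13.3 ± 2.59 CPM at day 0 to 6.96 ± 1.37 at day 12 (edgeR log2 fold -0.95, SE 0.18, adjusted p = 0.00028) and returned to 15.3 ± 0.229. Ccr7, the receptor that guides dendritic cells and lymphocytes to lymph nodes, was at 0.217 and 0.0738 CPM at day 0 (5 reads) and 0.0912 and 0.0799 at day 12 (4 reads), and at 1.13 and 0.639 12 days after removal (log2 fold over day 0 of 2.45, SE 0.62, edgeR adjusted p = 0.0053). Ccr10 was at 0.219 ± 0.003 CPM at day 0 and 0.471 ± 0.044 at day 12 (edgeR adjusted p = 0.14).

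Of 33 further ligands listed, 5 are in the files, and 2 rose and 2 fell at day 12, beside 30.0% and 33.4% of all genes. Cklf, a small chemokine-like factor, rose from 21.6 ± 5.81 to 29.0 ± 0.081 CPM (log2 fold 0.44, edgeR adjusted p = 0.022). Cx3cl1, the ligand of Cx3cr1, rose from 0.155 ± 0.011 CPM (5 reads in the group) to 0.453 ± 0.133 (21 reads) while its receptor fell. The edgeR log2 fold was 1.48 (SE 0.58, adjusted p = 0.035) and rests on these few reads. Cx3cl1 stood at 0.637 ± 0.067 CPM (27 reads) 12 days after removal. Ccl25, a ligand of the gut-homing receptor Ccr9, fell from 18.0 ± 3.98 to 9.68 ± 0.299 CPM (edgeR log2 fold -0.90, SE 0.17, adjusted p = 0.00025), and Ccl27a fell from 4.74 ± 0.395 to 2.82 ± 0.202 (-0.74, edgeR adjusted p = 0.025).

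Of 13 receptors for other chemoattractants in the files, 5 rose and 2 fell at day 12, beside 30.0% and 33.4% of all genes. From day 12 to 12 days off 1 rose and 9 fell, beside 32.9% and 32.4% of all genes. Ptafr, the receptor for platelet-activating factor, rose from 1.80 ± 0.694 to 11.9 ± 0.124 CPM (edgeR log2 fold 2.77, SE 0.21, adjusted p = 3.8e-08), and Ffar2, a receptor for short-chain fatty acids, from 2.90 ± 0.178 to 7.51 ± 0.277 (1.38, SE 0.18, edgeR adjusted p = 8.7e-06). C3ar1, the receptor for complement C3a, was at 0 and 0.0738 CPM at day 0 (1 read) and at 2.01 and 2.68 at day 12 (111 reads), a ratio of 75.5 with an exact 95% counting interval of 13.3 to 3010 (edgeR adjusted p = 4.9e-05). It had 0 reads 12 days after removal, which allows up to 0.147 and 0.137 CPM in the 2 libraries. C3ar1 passed 0.5 CPM only in the day 12 libraries, total and Cd11b-high. Its high level there was thus a condition of being in the files. Cmklr1, the signalling receptor for chemerin, fell from 8.03 ± 1.90 to 0.562 ± 0.173 CPM (edgeR log2 fold -3.83, SE 0.33, adjusted p = 1.7e-07) and was at 2.76 ± 0.358 12 days after removal.

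Most of the genes listed as the machinery behind the receptors rose with doxycycline. The list was chosen with earlier results of these data known, so its shares are a description and not support. Its 36 genes in the files carry the signal from receptor to G protein, kinase and cytoskeleton. The genes named below were picked by their small adjusted p at day 12, and they rose by more than the list median. At day 12, 29 rose and 0 fell, beside 30.0% and 33.4% of all genes, with a median log2 fold of 1.08 against -0.07 over all genes. From day 12 to 12 days off, 2 rose and 27 fell, beside 32.9% and 32.4% of all genes. Pik3cg, the phosphoinositide 3-kinase opened by G protein subunits, rose from 21.6 ± 1.83 to 119 ± 0.542 CPM (2.46, SE 0.15, edgeR adjusted p = 5e-09). Rac2, a GTPase of the leukocyte cytoskeleton, rose from 275 ± 9.83 to 921 ± 29.1 CPM (1.75, SE 0.11, edgeR adjusted p = 9e-09), and Rassf5, which links chemokine signals to integrins, from 55.0 ± 3.11 to 248 ± 2.88 (2.17, SE 0.13, edgeR adjusted p = 4.8e-09).

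Most of the listed genes that switch the receptors off rose as well. That list and the genes named from it were chosen in the same way. The 19 genes were arrestins, receptor kinases, regulators of G protein signalling and genes of receptor ubiquitination and endosomal sorting. Of them, 16 rose and 0 fell at day 12, beside 30.0% and 33.4% of all genes, with a median log2 fold of 0.78. From day 12 to 12 days off, 2 rose and 15 fell, beside 32.9% and 32.4% of all genes. Arrb2, a beta-arrestin, rose from 49.5 ± 1.71 to 207 ± 1.12 CPM (edgeR log2 fold 2.07, SE 0.11, adjusted p = 2.2e-09) and was at 32.7 ± 5.55 12 days off. Rgs10 rose from 4.06 ± 0.635 to 20.8 ± 0.849 CPM (2.34, SE 0.15, edgeR adjusted p = 7e-09), Rgs19 from 23.2 ± 0.927 to 47.4 ± 0.680 (1.03, SE 0.11, edgeR adjusted p = 1e-06) and Rgs18 from 208 ± 15.6 to 399 ± 9.77 (0.94, SE 0.11, edgeR adjusted p = 3.2e-06). Against day 0, the levels 12 days after removal were called higher for 15 and lower for 7 of the 36 signalling genes and higher for 5 and lower for 5 of these 19, beside 21.6% and 22.0% of all genes. No gene of the 5 lists was called between Cd11b-high and total cells by edgeR.

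**Figure D5:**
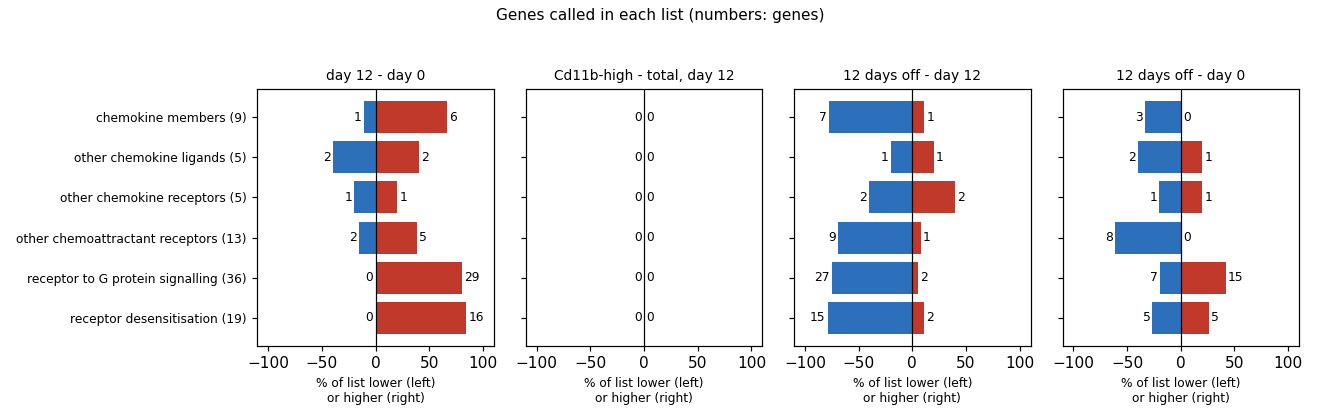
Share of each gene list called higher (red, right) or lower (blue, left) by edgeR in the 4 main comparisons, with the number of genes beside each bar and the list size in brackets. Most of the signalling and desensitisation lists is on the higher side at day 12 (29 of 36 and 16 of 19, beside 30.0% of all genes). At 12 days off against day 12 most of both is on the lower side, and the Cd11b-high panel is empty.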

How the data were processed

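RNA from FACS-sorted AML246 cells was sequenced on an Illumina NextSeq500, per the labels' protocols. The deposited files give whole-number read counts per Entrez gene and a gene length, per the file headers. featureCounts, edgeR and limma with the mm10 genome were used by the authors, per the submitters' processing notes, which give neither versions nor roles. The sources used here do not name the aligner. Each of the 13652 listed genes exceeds 0.5 CPM in at least 3 libraries, so genes low in every group are not seen. Genes low at day 0 and after removal, such as Ccl9 and C3ar1, are seen only because they were higher on doxycycline. Symbols and promoters came from RefSeq GRCm38.p6 tables, which named 13216 genes; all 9 members had a promoter.

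Counts of all 16 libraries were fitted together, with 1 mean per group and no replicate term, in R 4.3.3 by the robust quasi-likelihood test (edgeR 4.0.16, which uses limma 3.58.1) after TMM scaling (factors 0.924 to 1.05), two-sided, with Benjamini-Hochberg adjustment over all genes within each of 14 comparisons. filterByExpr removed 0 genes, and the biological coefficient of variation was 10.9% on 8 residual degrees of freedom. CPM use TMM-scaled library sizes, and per-kilobase values use the deposited lengths. Intervals of log2 folds are 95% intervals, from the SE and the t distribution on 8 degrees of freedom. The test itself takes more degrees of freedom, so an interval can be wider than the p beside it implies. Groups with 1 to 3 reads are given with exact 95% counting intervals, and 0 reads with a limit of 3 reads; both cover counting error only. Replicates differed by more than sampling noise in every group. The script was tested on simulated counts.

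The members and gene lists were chosen with earlier results of these data known. All members, Spi1, Itgam and from each pathway list the 4 genes with the smallest adjusted p at day 12 against day 0 are named, with the 3 genes most like each member, apart from 2 genes that are not reported here. The remaining lists held basophil and mast cell, T and NK, B, erythroid, dendritic and leukaemic progenitor markers. Alternatives were RLE factors, library size alone, 2 filters, DESeq2 1.42.0, limma-voom, the compared libraries alone, a prior count of 2, a replicate block and fits without each library.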

Additional observations from a re-analysis of the deposited data

How the results depend on the processing

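Over the alternatives, the members' log2 folds gave 1607 values. Of these, 1526 kept direction and side of the threshold, 64 lost a call, 17 gained one and 0 turned a called direction. Among 726 values uncalled in both fits, 28 changed sign. Fitting without a filter repeated the main fit, because filterByExpr removed 0 genes. The prior count of 2 changes log2 folds and not p-values. Neither of these could gain or lose a call, so part of the 1526 was fixed in advance. For Cd11b-high against total cells, the libraries compared alone called 1 member and 313 of all genes, where the fit of all libraries called 0 and 2; DESeq2 called 15 genes, and library size alone, a filter at a mean of 1 CPM and limma-voom called 1 each. For 12 days off against day 0, the libraries compared alone called 2160 genes against 5950. The cause was not tested. Leaving out 1 library gave 7 to 8 members at day 12 against day 0, 0 to 0 for Cd11b-high, 6 to 8 for 12 days off against day 12 and 2 to 2 against day 0. For all genes it gave 7211 to 7570, 1 to 1, 7436 to 9627 and 4169 to 7676. Library size alone moved the median log2 fold of all genes at day 12 from -0.07 to -0.20. The filter at 1 CPM removed Ccl3.

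The labels do not pair letters A and B between groups. The differences of A and B correlated by over 0.1 in 8 of 28 pairs of groups (range -0.09 to 0.26). With a replicate block, member counts were 7, 0, 8 and 3 in the 4 main comparisons, as without it. In the side comparisons the block called Ccl6 between days 8 and 12 (adjusted p = 0.035) and Ccr2 between 8 and 12 days off (0.039), and lost Ccl9 at 8 days off against day 0 (0.053).

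Depth limits low genes: Ccl3 never exceeded 82 reads in a group, and Ccl9 and Ccr3 held 1 to 7 reads late after removal. With 2 libraries a group, small changes of low genes cannot be resolved.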

Other observations

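The lists of other cell types that bear on no single result above gave these values. From day 0 to day 12, 30.0% of all genes rose and 33.4% fell. Of 7 basophil and mast cell markers in the files, 3 rose and 3 fell at day 12 against day 0; their sum was 2440 to 3018 CPM at day 0, 680 to 794 at day 4 and 2198 to 2211 at day 12, with Cma1 at 0 reads at day 4. Of 8 leukaemic progenitor markers, 3 rose and 5 fell at day 12. Those that rose were Kit (125 to 316 CPM, means of 2 libraries), Cd34 (27.3 to 136) and Ptprc, which encodes Cd45 (0.155 to 66.8). After 12 days off these were at 130, 22.5 and 0.402 CPM. Those that fell were Mpo, Elane, Ctsg, Prtn3 and Myb. Mpo, the azurophil granule peroxidase, was at 601 CPM at day 0, 30.3 at day 12 and 427 after 12 days off. All 3 dendritic cell markers in the files, of 7 listed, rose at day 12, to a sum of 6.61 to 7.67 CPM. Itgax (0 CPM at day 0, 1.49 at day 12) and Clec9a (0.037 and 0.967) were under 0.5 CPM at day 0 and 12 days off. They are in the files only through groups where they were higher, so this count is not independent of the limit on listed genes. Both erythroid markers in the files, Klf1 and Epor, fell, to a sum of 3.28 to 3.60 CPM. Of 5 T and NK cell markers 1 rose and 2 fell, and of 3 B cell markers 1 rose and 1 fell.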
